A study of Mus musculus with 4 samples.

Results

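Capped RNA ends were read in the early mouse embryo, and their positions were joined into clusters. Of these, 383 were on in the blastocyst and not on in the oocyte or the 2-cell embryo. They were chosen by read starts out of 259863 clusters on chromosomes 1 to 19. A cluster joins neighbouring read starts of 1 strand when they are no more than 20 bp from each other, with the 11 runs pooled. A line is 1 listed placement of a 25-base read, and a stage counted as on in a cluster when at least 2 of its runs had 2 or more lines there. A densely read stretch of 10 kb on chromosome 17 was left out, as were the sex chromosomes and the mitochondrial genome. The values of the oocyte, 2-cell and blastocyst runs therefore chose the members, and these values are given here as a description. The 8-cell runs were pooled with the others to draw the clusters, but took no part in the on and not-on calls that chose the members.

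Fully grown oocytes, 2-cell embryos at 48 h, 8-cell embryos at 68 h and blastocysts at 92 h were F1 (C57BL/6J X CBA/H), and no treatment was named. NanoCAGE was used at each of the 4 stages, with total RNA as the starting material. Each stage is 1 sample, read in runs 1.1, 1.2 and 2, or in runs 1 and 2 for the 2-cell embryo. The labels state neither what these numbers stand for nor whether each run had its own embryos. The runs are thus not taken as replicates, and stages are compared without p-values or SDs. Coordinates are in mm9, and strands are those of the read placements. The files name no gene, so the stages could not be checked against marker genes. The 3 blastocyst runs were shallow, with 40922, 33473 and 95702 lines in runs 1.1, 1.2 and 2. The 8-cell runs held 51434, 82454 and 1155992 lines, the 2-cell runs 236980 and 211961, and the oocyte runs 272199, 1375332 and 474089.

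The blastocyst is the stage at which the embryo has formed an outer trophectoderm, which contributes to the placenta, and an inner cell mass, from which the fetus derives. Embryonic transcription in the mouse is broadly active from the 2-cell stage on, whereas oocyte RNA is stored maternal RNA that is largely degraded during this step. Retrotransposon promoters are known to be used in stage-dependent ways over this period, and methods that select capped ends place the start of an RNA to within a few bases.

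The members were carried mainly by blastocyst runs 1.1 and 1.2. Of the 383 members, 293 (76.5%) had 2 or more lines in runs 1.1 and 1.2 and not in run 2. A further 45 had them in runs 1.1 and 2, 31 in runs 1.2 and 2, and 14 in all 3 runs. Of all clusters 0.233% were on in the blastocyst, a share that the rule itself uses. No line of run 2, the deepest of the 3, fell in 274 of the 293. Among the other 223 clusters on in the blastocyst, which were also on in the oocyte or the 2-cell embryo, 32 (14.3%) rested on runs 1.1 and 1.2 alone and 85 (38.1%) had 2 lines in all 3 runs.

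The members took 33.1% of the lines of blastocyst run 1.2 (exact 95% interval 32.6% to 33.6%, for counting error only). They took 5.91% of run 1.1 (5.68% to 6.14%) and 0.818% of run 2 (0.762% to 0.877%). The mean over the 3 runs was 13.3%, and it was 0.527% without run 1.1 and 0.487% without run 1.2, when only 45 and 59 clusters were members. Before the blastocyst the same positions took 0.00588%, 0.00422% and 0.0956% of oocyte runs 1.1, 1.2 and 2, and 0.324% and 0.0335% of the 2-cell runs. At the 8-cell stage they took 0.296%, 0.273% and 0.0224% of runs 1.1, 1.2 and 2. The ranges of the oocyte, 2-cell and 8-cell runs overlapped, and all 8 earlier runs lay below the lowest blastocyst run. Shares are of a run's lines, so that fewer cells with an RNA and less of it per cell cannot be told apart. Read names hold the same start, D118D2_0001, in blastocyst run 1.2 and oocyte runs 1.1 and 2, in which the members took 33.1%, 0.00588% and 0.0956% of lines. What this shared start stands for is not stated. No blastocyst run shared it with a 2-cell or 8-cell run.

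**Figure D1:**
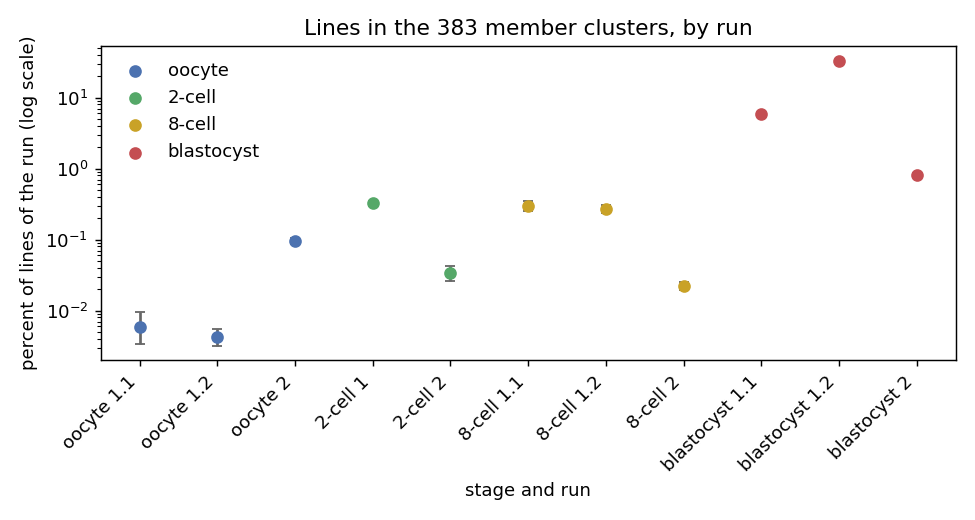
Percent of each run's lines that fall in the 383 member clusters, on a log scale, with exact 95% intervals for counting error; each point is 1 run and colours mark the stage. Blastocyst run 1.2 stands at 33.1%, run 1.1 at 5.91% and run 2 at 0.818%, and the 8 earlier runs lie at 0.324% or below.

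The lines were unevenly spread over the members. By the mean of the 3 blastocyst runs with equal weight, the largest member held 1.33% of lines, the first 10 held 6.01% and the first 100 held 11.02% of the 13.3%. The median member held 0.00923%. In the oocyte and 2-cell runs a count of 0 allows shares of at most 0.000218% to 0.00142%, below that median in each run. In the blastocyst the limits were 0.00733%, 0.00896% and 0.00313% in runs 1.1, 1.2 and 2.

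The largest member, on chromosome 12 (mm9) from 100066739 to 100066741 on the minus strand, had 21 lines in blastocyst run 1.1, 1321 in run 1.2 and none in run 2. It was therefore present in both runs whose number begins with 1 and unread in the deepest, and it had no line in any of the 8 earlier runs. Its share of run 1.2 was 3.95%, at least 1259-fold higher than the 3 lines that a count of 0 allows in run 2. Its share of run 1.1 was 0.0513%, at least 16.4-fold higher by the same limit. The second, on chromosome 1 from 159352751 to 159352755 (minus strand), had 86, 1055 and 0 lines in runs 1.1, 1.2 and 2. The third, on chromosome 11 from 3056654 to 3056656 (minus), had 144, 619 and 0.

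The other 7 of the first 10 repeated this pattern. The cluster on chromosome 3 from 115133965 to 115133970 (minus) had 118, 580 and 0 lines in the 3 runs, and that on chromosome 1 from 111467877 to 111467880 (minus) had 41, 420 and 0. On chromosome 10 from 50682186 to 50682188 (plus) there were 29, 419 and 0 lines, and on chromosome 15 from 49154090 to 49154093 (plus) 22, 392 and 0. The 3 remaining were on chromosome 6 from 67021779 to 67021783 (minus) with 67, 297 and 0 lines, chromosome 1 from 191598153 to 191598156 (minus) with 4, 250 and 0, and chromosome 9 from 3500775 to 3500777 (plus) with 98, 168 and 0. None of these 10 had a line in any oocyte, 2-cell or 8-cell run. All 10 were higher in run 1.2 than in run 1.1 as a share of lines, but the order of the 10 differed between the runs: the cluster on chromosome 11 led in run 1.1 and that on chromosome 12 in run 1.2.

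Runs 1.1 and 1.2 shared positions to the base. Of the 307 members with 2 or more lines in each of them, 261 (85.0%) had the same leading start in both and 287 had it within 1 base. With run 2 the leading start was the same in 9 of 59 members shared with run 1.1 (15.3%) and within 1 base in 20, and the same in 6 of 45 shared with run 1.2 (13.3%) and within 1 base in 14. Among members with at most 10 blastocyst lines the counts were 108 of 132 between runs 1.1 and 1.2, 6 of 35 between 1.1 and 2, and 4 of 24 between 1.2 and 2. Among the other clusters on in the blastocyst, runs 1.1 and 1.2 had the same leading start in 65 of 117 (55.6%), and run 2 in 26 of 139 with run 1.1 and 36 of 137 with run 1.2. The levels were less alike than the positions. The share in run 1.2 was a median of 2.75 times that in run 1.1 (quartiles 1.22 and 5.86), was higher in 270 of the 307, and ranged from 0.204 to 76.9 times.

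**Figure D2:**
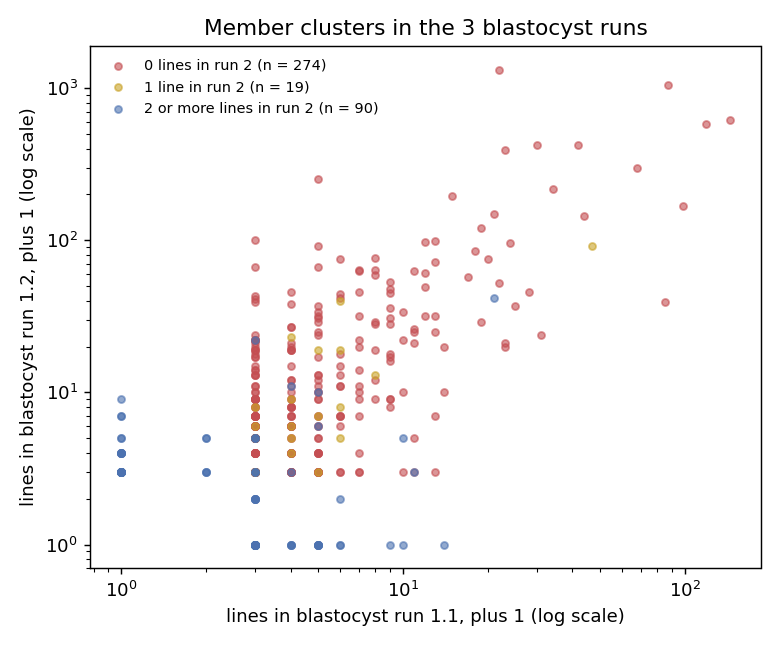
Lines of each of the 383 members in blastocyst runs 1.1 (x axis) and 1.2 (y axis), each plus 1 on a log scale; colours mark the lines in run 2. The 274 members with no line in run 2 include those with the most lines in runs 1.1 and 1.2, and the 90 with 2 or more lines in run 2 lie mostly near the lower left.

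The 90 members with at least 2 lines in run 2 (23.5%) were small in the other runs. Together they held 0.521% of run 1.1, 0.627% of run 1.2 and 0.798% of run 2. The member with the most lines in run 2, named after its values were seen, lay on chromosome 16 from 42635546 to 42635552 (plus) and had 0, 2 and 131 lines in runs 1.1, 1.2 and 2. It was thus a member through 2 lines of run 1.2. It also had 2 lines in oocyte run 2 and 2 in 2-cell run 1.

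Of the 14 members seen with 2 lines in all 3 runs, the largest lay on chromosome 13 from 82021882 to 82021892 (minus), with 20, 41 and 3 lines in runs 1.1, 1.2 and 2. It had 9, 6 and 4 lines in 8-cell runs 1.1, 1.2 and 2, 2 and 1 in oocyte runs 1.1 and 1.2, and 2 in 2-cell run 1. Next came chromosome 3 from 123768817 to 123768821 (minus) with 2, 21 and 3 blastocyst lines, and chromosome 12 from 76198686 to 76198697 (plus) with 3, 2 and 36. These members were led by different runs. The cluster on chromosome 15 from 36966157 to 36966167 (plus) had 3, 10 and 3 lines, that on chromosome 16 from 50670455 to 50670466 (plus) 4, 9 and 2, and that on chromosome 14 from 31891866 to 31891875 (minus) 9, 4 and 2. On chromosome 11 there were 2, from 25196453 to 25196467 (minus) with 10, 2 and 3 lines and from 51723848 to 51723855 (minus) with 2, 4 and 13. The last 2 named here were on chromosome 15 from 97219830 to 97219833 (plus), at 2, 2 and 17 lines, and on chromosome 6 from 50437479 to 50437492 (plus), at 2, 4 and 8. The latter tied with a cluster on chromosome 7 from 25328430 to 25328434 (plus), and a cluster on chromosome 18 that ranked above both is not named. All 10 named had at least 1 line in an 8-cell run and at least 1 in an oocyte or 2-cell run, and that on chromosome 6 had 59 lines in 2-cell run 1 and none in run 2.

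"Not on" before the 8-cell stage did not mean without reads. Of the 383 members, 242 (63.2%) had no line in any oocyte or 2-cell run and 141 (36.8%) had at least 1. In 106 members a single earlier run of a stage held 2 or more lines: 74 in 2-cell run 1, 10 in 2-cell run 2, 33 in oocyte run 2, 6 in oocyte run 1.2 and 2 in oocyte run 1.1, with 19 members in both stages. The largest such number was 186 lines in oocyte run 2, in a cluster on chromosome 19 from 3867544 to 3867573 (minus) that had 4, 18 and 1 lines in the blastocyst runs and none in the other 2 oocyte runs, and which was named after its values were seen. Without 2-cell run 2, when 1 run sufficed for that stage, 309 of the 383 were members. Of the 293 members resting on runs 1.1 and 1.2 alone, 72 had an oocyte or 2-cell line, against 69 of the 90 with 2 lines in run 2.

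At the threshold, 37 members had just 4 blastocyst lines. The first of these by position lay on chromosome 1 at 12115314 (minus), with 2, 2 and 0 lines in runs 1.1, 1.2 and 2, and the second on chromosome 1 from 21132270 to 21132282 (minus), also with 2, 2 and 0. Just outside were 274 clusters with 2 lines in 1 run and 1 in another. The first of these, on chromosome 1 from 26562703 to 26562704 (minus), had 2, 1 and 0 lines, and the next, from 39903541 to 39903544 (minus), had 1, 2 and 0.

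The 8-cell runs show how many of the members were already read 1 stage earlier. At the 8-cell stage 29 of the 383 members (7.57%, exact 95% interval 5.13% to 10.7%) were on, against 0.920% of all clusters and 0.444% of clusters not on in the oocyte, the 2-cell embryo or the blastocyst. Of the other 223 clusters on in the blastocyst, 157 (70.4%, 63.9% to 76.3%) were on. The member share lay between these values, but the sets were chosen by unlike rules. Members needed 2 or more lines in at least 2 blastocyst runs, whereas clusters in general needed no minimum. The median number of blastocyst lines was 11 in members and 0 in clusters not on in the oocyte, the 2-cell embryo or the blastocyst. The order of the shares is therefore a description. The intervals of these shares take each cluster as 1 count and cover that counting error only. Clusters are not replicates of a stage, and no test between stages was possible. The member share was lower than that of the other blastocyst clusters also in each of the 21 alternative settings, by at least 40.7 percentage points. The other clusters were chosen for being on in the oocyte or the 2-cell embryo, which the 8-cell stage follows. Single runs moved the member share: it was 33.3% without blastocyst run 1.1, 22.0% without run 1.2 and 4.23% without run 2. Without 2-cell run 2 it was 3.24%. With 1 of the 8-cell runs 1.1, 1.2 and 2 left out, so that both others had to hold 2 lines, it was 3.66%, 3.13% and 4.43%.

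The gap was also present within classes of pooled blastocyst lines. These classes match blastocyst lines alone: the other clusters were still those on in the oocyte or the 2-cell embryo. The top class, of 50 or more lines, was wide and reached 8037, whereas the largest member held 1342. With 4 to 5 blastocyst lines, 5 of 71 members (7.04%) and 6 of 16 other clusters (37.5%) were on at the 8-cell stage, with overlapping intervals. With 10 to 19 lines these were 10 of 91 (10.99%) and 36 of 57 (63.2%), and with 50 or more 1 of 49 (2.04%) and 62 of 69 (89.9%). In the 3 classes from 10 lines up, and in that of 6 to 9 lines, the intervals lay apart. These intervals take each cluster as 1 count, and clusters are not replicates of a stage. Whether they overlap is thus no test between the sets.

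**Figure D3:**
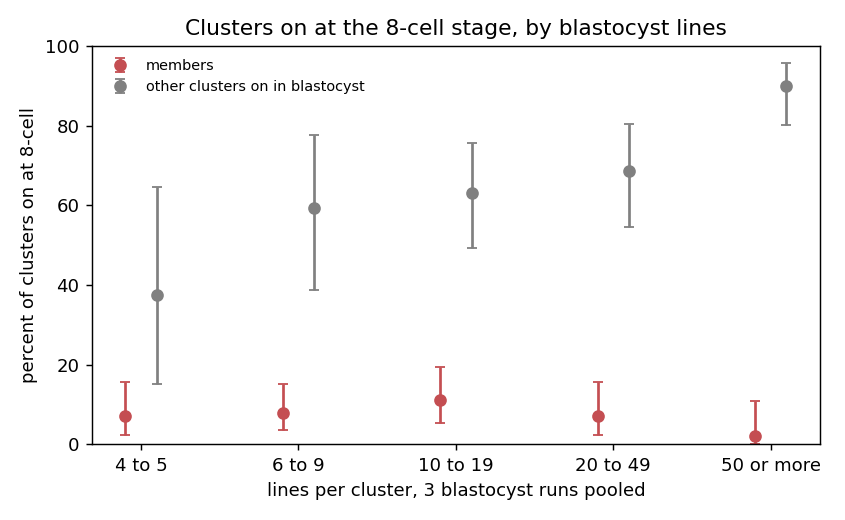
Percent of clusters on at the 8-cell stage by their lines in the 3 blastocyst runs pooled, with exact 95% intervals for counting error; red points are members and grey points the other clusters on in the blastocyst. Members lie between 2.04% and 10.99%, and the other clusters rise from 37.5% to 89.9%.

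Within the members, 8-cell lines differed with the run pattern. Of the 293 resting on blastocyst runs 1.1 and 1.2 alone, 7 (2.39%, 0.966% to 4.86%) were on at the 8-cell stage. Of the 90 with 2 lines in run 2, 22 (24.4%, 16.0% to 34.6%) were on, and of the 14 with 2 lines in all 3 runs 6 were (42.9%, 17.7% to 71.1%). At least 1 8-cell line was found for 48 of the 293 (16.4%) and 64 of the 90 (71.1%). Of all clusters 26.6% had one, but clusters were drawn from all runs pooled, so that a lone 8-cell line forms its own cluster. That share is therefore not a like baseline for members, which had to hold blastocyst lines. The 293 had more blastocyst lines, with a median of 12 against 7. In all, 271 members had no 8-cell line, and 225 had none in any earlier run.

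The largest member on at the 8-cell stage was the cluster on chromosome 13 at 82021882 described above, and the second was that on chromosome 3 at 123768817, with 2, 2 and 0 lines in 8-cell runs 1.1, 1.2 and 2. The third lay on chromosome 6 from 18767039 to 18767052 (minus). It had 6, 4 and 18 lines in the 8-cell runs, 0, 8 and 29 in the blastocyst runs, and 23 in 2-cell run 1. On chromosome 1 from 124522764 to 124522770 (plus) there were 1, 2 and 2 lines at the 8-cell stage and 12, 6 and 0 in the blastocyst. On chromosome 14 from 86806393 to 86806401 (plus) there were 6, 7 and 2 lines and 4, 12 and 0 lines. These 5 differed from the 10 largest members in having at most 41 lines in any blastocyst run and at least 1 line before the 8-cell stage.

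Members were narrow. Over the starts of all runs their median width was 3 bases (quartiles 1 and 7), 100 were 1 base wide, and 334 (87.2%) were at most 10 bases. The other clusters on in the blastocyst had a median width of 14 bases, and 67 of 223 (30.04%) were at most 10. The leading start held a median of 83.2% of a member's blastocyst lines, against 50% in the other clusters. These measures come partly from the lines that chose the members, and they are a description. Width also counts the starts of the earlier stages. The other clusters had to be on at an earlier stage used by the rule, and members had to be not on there. The rule itself can therefore set the widths apart, and their difference is no property of members alone. Among clusters with at least 10 blastocyst lines the medians were 85.7% and 50% for the leading start and 3 and 14 bases for the width. This limit applies to blastocyst lines alone and leaves the lines of the earlier stages unmatched.

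The members resting on runs 1.1 and 1.2 alone were the narrowest. The 293 had a median width of 2 bases and 91.7% of lines at the leading start, and 109 of them (37.2%) had all blastocyst lines at 1 base. The 90 with 2 lines in run 2 had a median width of 8 bases and 50% at the leading start, the latter as in the other clusters. Of these 90, 63 (70%) were at most 10 bases wide, against the 30.04% of the other clusters. Width counts the starts of all runs, and the other clusters had to be on in the oocyte or the 2-cell embryo. Their share is therefore not a like baseline. Of the 90, 69 had an oocyte or 2-cell line, against 72 of the 293. In the cluster on chromosome 12 at 100066739, 98.3% of lines began at base 100066740. In that on chromosome 1 at 159352751, 68.2% began at 159352752, over 4 start positions.

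**Figure D4:**
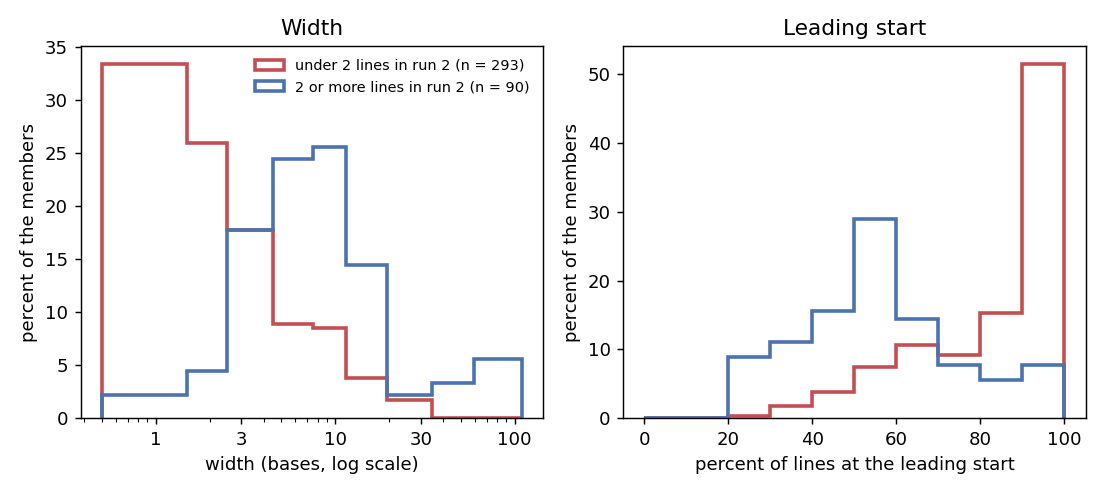
Width of the members in bases on a log scale (left) and percent of blastocyst lines at the leading start (right), as percent of each set; red marks the 293 members with under 2 lines in blastocyst run 2 and blue the 90 with 2 or more. The red set peaks at 1 base and at over 90% of lines at the leading start, and the blue set has medians of 8 bases and 50%.

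Placement scores differed between the blastocyst runs. Over all lines the median score was 16, 32 and 15 in blastocyst runs 1.1, 1.2 and 2, and over member lines it was 16, 57 and 15. The median of member lines lay above that of all lines in run 1.2 and equalled it in the other 2 runs. A score of 20 or more was held by 4.41%, 88.8% and 7.55% of all lines in the 3 runs, and by 16.7%, 94.7% and 4.09% of member lines. With this limit 63 clusters were members, 60 of them among the 383. Lines that repeated the same read at the same place made up 5.54%, 1.72% and 3.19% of member lines, against 3.75%, 2.15% and 2.74% of all lines. Counted once, they left 353 members, of which 350 were among the 383.

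Members lay on each of chromosomes 1 to 19, from 8 on chromosome 19 to 36 on chromosome 1, and 188 were on the plus strand and 195 on the minus strand. Chromosome 13 held 34 (8.88%, exact 95% interval 6.23% to 12.2%), 4.77% of all clusters and 8 (3.59%) of the other clusters on in the blastocyst. On the other 18 chromosomes the share of all clusters lay within the interval of the member share. The share of the other blastocyst clusters lay below that interval also on chromosomes 6, 14 and 16, and above it on chromosomes 2, 7 and 11. The intervals make no allowance for comparing 19 chromosomes. Members were scattered: of the stretches of 100 kb with a member, 361 held 1 and 11 held 2, and none held more.

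Only 8 pairs of members lay within 10 kb of each other, and the starts of each pair were at most 194 bases apart. In 6 of the 8 the members were on opposite strands, and the 25-base reads of their leading starts shared 17 to 22 bases. On chromosome 8, the cluster from 45258468 to 45258469 (plus) had 2, 18 and 0 lines in runs 1.1, 1.2 and 2, and that from 45258494 to 45258495 (minus) 7, 11 and 0, with 22 bases of the 2 windows shared. On chromosome 2, clusters from 116732200 to 116732210 (plus) and from 116732222 to 116732230 (minus) had 3, 5 and 1 and 2, 2 and 1 lines, and shared 21 bases. On chromosome 1, those from 21132251 to 21132258 (plus) and from 21132270 to 21132282 (minus) had 2, 1 and 2 and 2, 2 and 0 lines, and shared 18 bases. On chromosome 6, the large cluster at 67021779 was followed on the same strand by one at 67021806 with 4, 3 and 0 lines. The remaining stretch of 100 kb named held 2 members on chromosome 2 that were farther apart, from 67142799 to 67142800 (minus) with 8, 35 and 0 lines and from 67179730 to 67179733 (minus) with 3, 0 and 3.

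Blastocyst lines on the opposite strand in nearly the same window, sharing at least 20 of 25 bases with that of the leading start, were found for 63 of the 383 members (16.4%, exact 95% interval 12.9% to 20.5%). They were found for 50 of the other 223 clusters (22.4%, 17.1% to 28.5%), with overlapping intervals. Of the 10 largest members 2 had 1 such line each, and the other 8 had none. The clusters were not assigned to genes or repeat families here.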

How the data were processed

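NanoCAGE lines of 4 stages in 11 runs were used. The authors deposited 1 file per run, with chromosome, start, end, read name, a score from 1 to 99 of unstated scale, and strand. Per the submitters' processing notes the build was mm9 and CASAVA was used; aligner settings, the treatment of reads with several placements and the meaning of strand are not stated in the labels or files. Deposited counts per repeat family were not used.

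The start of a read was its 5′ base in 1-based coordinates. Lines were counted per cluster and run and divided by all lines of the run (Python 3.11.15, pandas 2.3.3). The members and lists were chosen with earlier results of these data known. Exact (Clopper-Pearson) 95% intervals and the limit of 3 lines for a count of 0 cover the counting error alone, because PCR copies carry no molecular identifier here and can stem from 1 molecule. For a percent of clusters or members, the interval takes each cluster as 1 count, and clusters are not replicates of a stage. Regions named are the 10 members with the highest mean share over blastocyst runs, the first 10 with 2 lines in all 3 runs, the first 5 on and not on at the 8-cell stage, the 5 stretches of 100 kb with most members, and 2 clusters on each side of the threshold; those on chromosome 18 were counted and not named. With 2 members each, these stretches were the first by position among equals. On simulated data, the rule returned the planted clusters, which lay well apart and were built to meet or miss it. This checked the computation alone, and not the rule where read starts are dense. The alternatives were the joining distance, the lines per run, the runs required, strict absence, repeated lines, the score, equal depth and leaving out each run. A genome or annotation of mm9 was not used here, so that no sequence, gene or repeat is given for a cluster.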

Additional observations from a re-analysis of the deposited data

How the results depend on the processing

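The number of members was 383 as given. It was 218 with at least 3 lines per run, 1367 with at least 1, 14 with all 3 blastocyst runs required, 242 with no line allowed in an oocyte or 2-cell run, and 63 with a score of at least 20. With runs 1.1 and 1.2 of each stage joined into 1, an alternative chosen after seeing the data, it was 105, of which 88 were among the 383. Thinned to the smallest run it was 373, of which 295 were among the 383. Leaving out 1 run gave 45 (without blastocyst run 1.1) to 409 (without oocyte run 2). The percent of members on at the 8-cell stage was 42.9% with all 3 blastocyst runs required, 0.826% with no earlier line, 1.59% with the score limit and 15.2% with runs joined, and 3.13% (without 8-cell run 1.2) to 33.3% (without blastocyst run 1.1) on leaving out 1 run. The median share of the leading start was 54.5% with all 3 runs required, 50% with runs joined, and 50% (without blastocyst run 1.1 or 1.2) to 92.0% (without run 2) on leaving out 1 run. The mean percent of blastocyst lines ran from 0.204% to 19.2% over all 21 alternatives. The cause of these differences was not tested. No paired analysis was possible because each stage is 1 sample, and the run numbers have no stated meaning. Depth is lowest in blastocyst runs 1.1 and 1.2, in which a count of 0 allows up to 0.00733% and 0.00896%.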

Other observations

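The dependence on runs 1.1 and 1.2 was not the same at the other stages read in 3 runs. Of the 7545 clusters on in the oocyte, 6268 (83.1%) had 2 or more lines in runs 1.1 and 1.2 and not in run 2. These were 790 of 2392 (33.0%) in the 8-cell embryo. In the blastocyst, members and other clusters together, they were 325 of 606 (53.6%). Of the clusters with 2 or more lines in run 1.1, 82.5% had them in run 1.2 in the oocyte, 42.5% in the 8-cell embryo and 14.2% in the blastocyst, and 9.23%, 25.6% and 6.64% had them in run 2. The shared clusters were 32.4%, 28.0% and 22.4% of those of run 1.2 and, with run 1.1, 9.54%, 5.28% and 3.10% of those of run 2. Depths differ between these runs.

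The blastocyst runs also differed in where the rest of their lines fell. Single lines outside clusters on in the blastocyst made up 58.3% of run 1.1, 16.1% of run 1.2 and 27.9% of run 2. Clusters that reached 2 lines in that run alone held 17.3%, 14.8% and 33.0%, and clusters on in the blastocyst and in the oocyte or 2-cell embryo held 6.12%, 16.8% and 27.3%.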
